A study of Mus musculus with 6 samples.

Results

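The 10 genes described here write, copy, guard or oxidise cytosine methylation: Dnmt1, Dnmt3a, Dnmt3b, Dnmt3l, Uhrf1, Hells, Dppa3, Tet1, Tet2 and Tet3. They were chosen by symbol and are 10 of the 23284 gene symbols counted. The RNA-seq libraries came from mouse oocytes that had finished growth and still held the germinal vesicle (GV), the large nucleus of an oocyte that has not resumed meiosis. Oocytes came from Lsd1 KO and Control females of a mixed C57BL/6-129 strain, aged 4 to 6 weeks, 48 hours after an injection of 5 IU of pregnant mare serum gonadotrophin, which stimulates follicle growth. Each genotype had 3 biological replicates of 100 oocytes, and the comparison addresses what depletion of LSD1, a histone lysine demethylase encoded by Kdm1a, does to oocyte transcripts. The allele, any Cre line and its promoter, and the genotype of the Control females at that allele are not stated in the labels.

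In mammals the methyltransferases DNMT3A and DNMT3B place new methyl groups on CpG sites, and in the growing mouse oocyte DNMT3A does so with DNMT3L, a relative with no catalytic activity of its own. DNMT1 copies the pattern after replication with UHRF1, which recognises hemimethylated sites, and with HELLS, a helicase-like remodeller that opens chromatin to methylation. The TET enzymes oxidise methylcytosine; TET3 is the form stored for the zygote, where DPPA3 (STELLA) shields maternal methylation from it, and DPPA3 also keeps UHRF1 out of the nucleus of the mouse oocyte.

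Libraries held 10735422 to 13035045 counts. Of 12935 genes tested, 21.3% were called at an adjusted p under 0.05, 11% higher and 10.3% lower in Lsd1 KO. Kdm1a had 47, 31 and 36 counts in Lsd1 KO replicates 1 to 3, against 799, 962 and 492 counts in Control replicates 1 to 3, so no library went against its label. Luzp1, which overlaps Kdm1a on the opposite strand with no shared exon, averaged 207 CPM (counts relative to library size, scaled by TMM) in Lsd1 KO, against 361 CPM in Control.

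All 13 oocyte markers were measured, with a summed level of 37030 to 41537 CPM in Lsd1 KO, against 25905 to 30934 CPM in Control. Gdf9, a growth factor secreted by the oocyte, made up most of that difference, and the other 12 summed to 22548 to 25283 CPM in Lsd1 KO, against 18889 to 25355 CPM in Control, which overlap. Gdf9 and Oosp1 were called higher, or 15.4% against the 21.3% of all genes tested, and the median log2 fold change of the list was -0.13. Of 12 immune and blood markers, Hba-a1 and Hbb-b1 were at 0 in every library. Without Pecam1, which was at 44.6 to 78.6 CPM throughout, the other 11 summed to 124, 2.80 and 87.6 CPM in Lsd1 KO replicates 1 to 3 and to 29.8, 2.26 and 34.6 CPM in Control replicates 1 to 3. The 14 granulosa and cumulus markers summed to 390.1 to 473 CPM in Lsd1 KO, against 136 to 151 CPM in Control. Among the 10 that were tested, 2 were called higher and 1 lower, or 30% against the 21.3% of all genes tested. At an unadjusted p under 0.05 there were 5 higher and 1 lower (edgeR), and the median log2 fold change was 1.19. Cyp19a1, the aromatase gene, was called higher at 328, 405 and 239 CPM in Lsd1 KO, against 28.6, 32.5 and 49.2 CPM in Control (edgeR adjusted p = 1.78e-05), and Nr5a2, a nuclear receptor gene, was called lower at 28.7 ± 3.99 CPM in Lsd1 KO, against 69.4 ± 3.10 CPM in Control (edgeR adjusted p = 7.86e-04). The other 12 summed to 40.9 to 118 CPM in Lsd1 KO, against 33.4 to 40.1 CPM in Control. Among them Inha, an inhibin subunit gene, was called higher at 21.7, 12.5 and 51.6 CPM in Lsd1 KO, against 10.7, 7.61 and 15.2 CPM in Control (edgeR adjusted p = 0.0430), and Hsd3b1, a steroid dehydrogenase gene, was at 19.1, 9.02 and 37.8 CPM in Lsd1 KO, against 12.3, 9.04 and 6.77 CPM in Control, and did not pass. Amh, Ptx3, Has2 and Lhcgr were at 1.35 CPM or less in every library. The 8 theca and stroma markers summed to 8.75 to 13.3 CPM in Lsd1 KO, against 1.39 to 2.26 CPM in Control. Most of the Lsd1 KO sum was Dcn, a matrix proteoglycan gene, called higher at 7.57 ± 0.386 CPM in Lsd1 KO, against 0.414 ± 0.169 CPM in Control (edgeR adjusted p = 1.92e-04). Dcn was the only gene of this list with enough counts to be tested, and Insl3 was at 0 in every library. Pdgfra, a growth factor receptor gene, went the other way, at 0.481, 0.0902 and 0.718 CPM in Lsd1 KO, against 1.11, 0.753 and 1.17 CPM in Control. The part of the granulosa, theca and stroma markers in the results was not tested. In bulk RNA, more cells of a type and more RNA per cell cannot be told apart.

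All 10 genes passed the filter on low counts. Tet1 and Dppa3 were higher in Lsd1 KO, none was lower, and 8 did not pass, so that 20% were called against the 21.3% of all genes tested. For higher calls alone the count was 2 of 10 against 11% of all genes, and at an adjusted p under 0.01 it was 0 of 10 in either direction, against 9.07% of all genes. No further gene of the 10 had an unadjusted p under 0.05, and DESeq2 and limma-voom also called Tet1 and Dppa3 higher and none lower. The median log2 fold change of the 10 was 0.05, with 5 estimates above and 5 below 0, and that of all genes was -0.01. The median size of the change was 0.32 in the 10 and 0.44 in all genes.

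**Figure D1:**
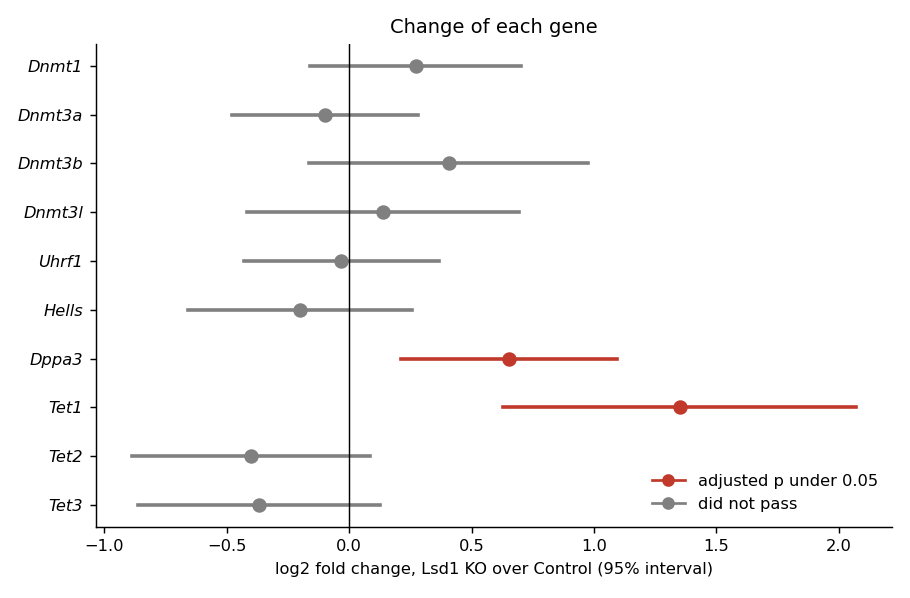
Log2 fold change of each of the 10 genes, Lsd1 KO over Control, on the horizontal axis, with the estimate as a point and its 95% interval (edgeR quasi-likelihood fit, not adjusted for the number of genes) as a bar. Tet1 and Dppa3, in red, lie to the right of 0, and the intervals of the other 8 include 0.

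Per kilobase of annotated exon, which allows genes to be compared with each other, the levels spanned more than 3 orders of magnitude. Dppa3 came first, at 3333 ± 723 CPM per kilobase in Lsd1 KO, against 2121 ± 325 in Control (SD, n = 3 each), at rank 4 of 17975 genes with a length and a count in Lsd1 KO and rank 8 in Control. Dnmt1 followed at 1017 ± 67.4 in Lsd1 KO, against 842 ± 194 in Control, at rank 25 in Lsd1 KO and rank 31 in Control. Transcripts of the maternal guard and of the maintenance enzyme were thus among the most abundant of the oocyte in both genotypes.

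Tet3 stood at 121 ± 10.9 CPM per kilobase in Lsd1 KO, against 157 ± 52.7 in Control, and Uhrf1 at 117 ± 21.1 in Lsd1 KO, against 120 ± 12.4 in Control; the libraries of the 2 genes overlapped in each genotype, so their order is not resolved. Dnmt3l, at 35.3 ± 14.9 in Lsd1 KO, against 32.1 ± 4.81 in Control, lay above Dnmt3a, at 12.2 ± 1.61 in Lsd1 KO, against 13.0 ± 1.37 in Control, without overlap. Before scaling by length the order was the reverse. Dnmt3a then averaged 203 CPM in Lsd1 KO, against 217 CPM in Control, and Dnmt3l 106 CPM in Lsd1 KO, against 95.9 CPM in Control. The order of this pair therefore rests on the length used, and Dnmt3a has 18 annotated transcripts. Per kilobase, Hells followed at 5.59 ± 1.35 in Lsd1 KO, against 6.42 ± 0.594 in Control. Dnmt3b, Tet2 and Tet1 were the lowest, at 4.07, 2.41 and 1.57 CPM per kilobase in Lsd1 KO, against 3.08, 3.18 and 0.618 in Control. Hells and Dnmt3b overlapped in Lsd1 KO and not in Control, as did Tet2 and Tet1, whereas Dnmt3b and Tet2 overlapped in Control and not in Lsd1 KO. With the longest transcript as length, Uhrf1 came before Tet3 in Lsd1 KO and Dnmt3b before Tet2 in Control, 2 pairs that overlap there.

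**Figure D2:**
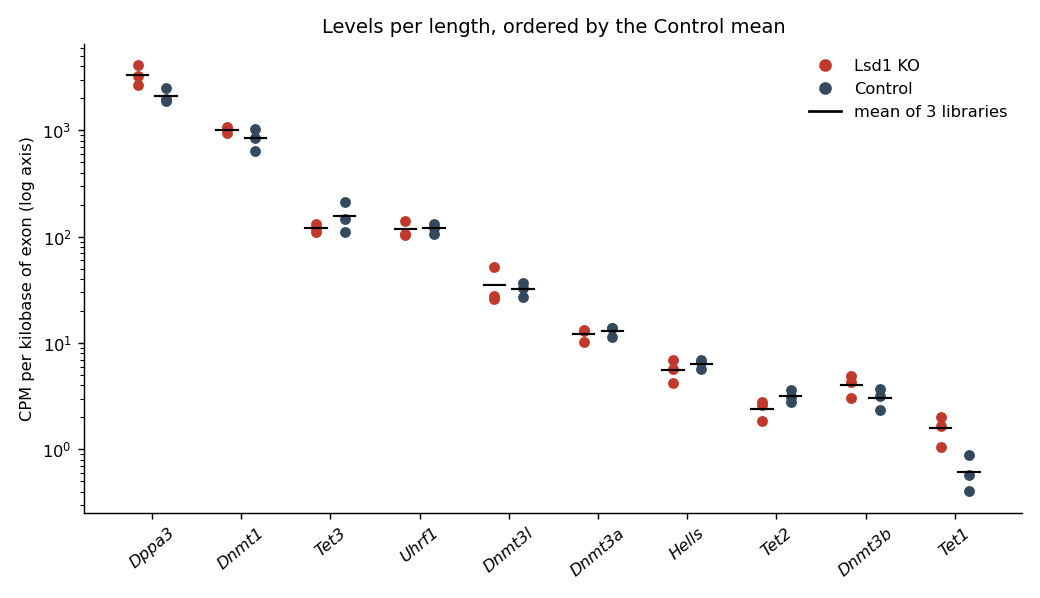
Level of each gene in CPM per kilobase of exon (log axis), with genes ordered by their Control mean, 1 point per library, Lsd1 KO in red left of Control in dark grey, and a line at the mean of 3. Dppa3 is the highest (mean 3333 in Lsd1 KO, 2121 in Control) and Tet1 the lowest (1.57 in Lsd1 KO, 0.618 in Control).

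Of the maintenance genes none was called. Dnmt1 (chromosome 9, 20711650 to 20757317, mm9) had 5443, 5659 and 4965 CPM in Lsd1 KO libraries, against 3397, 4461 and 5439 CPM in Control libraries. The Control range was the wider and overlapped the other, with replicate 1 the lowest of all 6. The log2 fold change was 0.27 ± 0.20 (SE; edgeR adjusted p = 0.355) with a 95% interval of -0.16 to 0.70. Mouse oocytes use a start site of Dnmt1 of their own, which counts per gene do not separate from the somatic one.

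Uhrf1 (chromosome 17, 56442744 to 56462909) had 447, 602 and 447 CPM in Lsd1 KO, against 455, 559 and 516 CPM in Control. The groups overlapped throughout, with a log2 fold change of -0.03 ± 0.18 and a 95% interval of -0.43 to 0.37, the estimate nearest to 0 among the 10. A sequence elsewhere in the genome covers 71.9% of the longest Uhrf1 transcript at 97.7% identity, and the sources used here do not say how reads that match both places were counted. Hells (chromosome 19, 39005405 to 39045541) had 30.4, 49.8 and 40.7 CPM in Lsd1 KO, against 49.7, 47.7 and 41.5 CPM in Control. Its groups overlapped, its log2 fold change was -0.20 ± 0.21, and the lowest library was Lsd1 KO replicate 1.

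Dppa3 (chromosome 6, 122576428 to 122580290) was higher in Lsd1 KO. It had 3651, 2367 and 2901 CPM in Lsd1 KO libraries, against 2223, 1682 and 1772 CPM in Control libraries. The groups did not overlap, as was so for 19.5% of genes in the direction of a rise, but Lsd1 KO replicate 2 and Control replicate 1 lay close together. The log2 fold change was 0.65 ± 0.20 (edgeR adjusted p = 0.0385), which is 1.57-fold with a 95% interval of 1.16 to 2.13. The call did not hold without Lsd1 KO replicate 1 (adjusted p = 0.170), Lsd1 KO replicate 3 (0.0713), Control replicate 2 (0.120) or Control replicate 3 (0.0769). The immune marker sum was lowest in replicate 2 of each genotype, where Dppa3 and Dnmt3b were lowest too. With that sum as a covariate the log2 fold change of Dppa3 was 0.53 (edgeR adjusted p = 0.0891). That of Dnmt3b was 0.25 with the covariate and 0.41 without it. A part of immune cells in either value was not tested. Elsewhere in the genome 2 loci match the Dppa3 transcript, over up to 98.1% of its length and at up to 97.7% identity, so the assignment of reads to this gene is uncertain.

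The de novo genes were not called either. Dnmt3a (chromosome 12, 3806007 to 3914443) had 221, 172 and 216 CPM in Lsd1 KO, against 191, 230 and 231 CPM in Control. The groups overlapped, and the log2 fold change of -0.10 ± 0.18, with a 95% interval of -0.48 to 0.28, was the most narrowly bounded of the 10. The antisense gene Gm10485, which shares 133 bases of exon with it, was at 0.277 CPM or less in all 6 libraries.

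Dnmt3l (chromosome 10, 77504692 to 77526367) had 77.0, 157 and 82.9 CPM in Lsd1 KO, against 109, 98.2 and 80.5 CPM in Control. Lsd1 KO replicate 2 stood apart, at nearly 2 times the other Lsd1 KO libraries, and the coefficient of variation of the group was 42.1%, the highest among the 10 genes, where the counting error of a library was at most 3.35%. The log2 fold change was 0.14 ± 0.26 with all libraries and -0.28 without Lsd1 KO replicate 2, and it passed in neither fit. Aire, on the opposite strand with 67 bases of shared exon, was at 6.25, 9.74 and 8.08 CPM in Lsd1 KO, against 6.01, 5.12 and 4.88 CPM in Control. Dnmt3b (chromosome 2, 153475186 to 153513466), which has little part in oocyte methylation in mice, had 21.8, 15.7 and 24.9 CPM in Lsd1 KO, against 16.3, 12.1 and 18.8 CPM in Control. Its log2 fold change was 0.41 ± 0.26 with a 95% interval of -0.16 to 0.98, the upper end of which is close to a doubling.

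**Figure D3:**
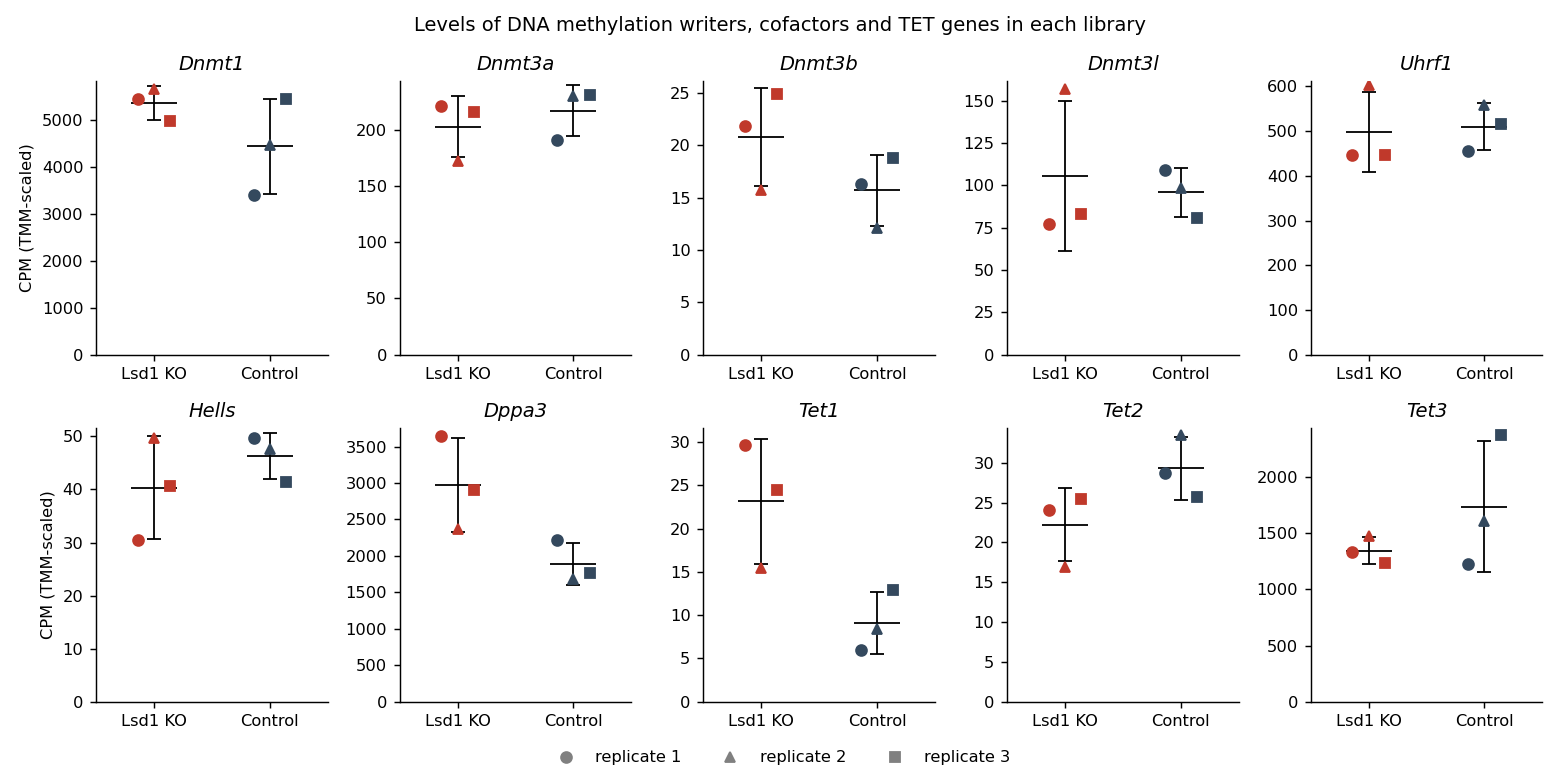
TMM-scaled CPM of each gene on a linear axis from 0, with Lsd1 KO left of Control, 1 symbol per library (circle, triangle and square for replicates 1, 2 and 3), a line at the mean and bars of 1 SD (n = 3). Tet1, Dppa3 and Tet2 are the genes whose groups do not overlap, Tet2 by less than 1 CPM.

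Among the TET genes, Tet1 was higher in Lsd1 KO and its paralogues were not called. The RefSeq window around the start of each is shown because Tet1 is the most changed of the 10 genes and the windows of the 3 paralogues differ in CpG content; it runs from 250 bases before to 50 bases after the start, on the strand of the gene (GRCm38.p6, Tet1 chr10:62887275-62887574 minus, Tet2 chr3:133544341-133544640 minus, Tet3 chr6:83441629-83441928 minus), with CpG sites in capitals.
Tet1: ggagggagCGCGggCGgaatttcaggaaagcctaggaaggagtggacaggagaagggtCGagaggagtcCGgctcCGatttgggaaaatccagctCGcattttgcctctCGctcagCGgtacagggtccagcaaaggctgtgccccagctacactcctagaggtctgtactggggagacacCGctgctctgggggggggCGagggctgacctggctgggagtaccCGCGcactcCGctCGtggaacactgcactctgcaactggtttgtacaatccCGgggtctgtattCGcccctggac
Tet2: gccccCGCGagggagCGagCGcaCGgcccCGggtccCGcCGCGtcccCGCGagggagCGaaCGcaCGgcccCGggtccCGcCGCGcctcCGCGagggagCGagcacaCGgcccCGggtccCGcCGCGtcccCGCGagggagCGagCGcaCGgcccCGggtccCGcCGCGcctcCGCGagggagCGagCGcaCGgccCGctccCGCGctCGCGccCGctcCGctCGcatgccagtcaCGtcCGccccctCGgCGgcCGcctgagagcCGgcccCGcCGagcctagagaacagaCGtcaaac
Tet3: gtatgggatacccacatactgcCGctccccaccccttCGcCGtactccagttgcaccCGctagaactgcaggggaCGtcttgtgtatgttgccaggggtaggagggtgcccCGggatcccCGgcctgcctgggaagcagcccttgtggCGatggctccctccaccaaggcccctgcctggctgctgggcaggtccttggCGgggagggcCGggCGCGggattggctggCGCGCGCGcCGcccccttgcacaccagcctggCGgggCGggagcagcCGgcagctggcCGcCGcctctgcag
Tet1 had 17 CpG sites, Tet2 57 and Tet3 22, where the median of 32851 mouse windows of this length was 7. The GC box GGGCGG, searched on both strands, was found 1, 1 and 2 times in Tet1, Tet2 and Tet3 and in 35.7% of all windows, whereas TATAAA (13.6% of windows) and TAATTG (8.0%) were in none of the 3. RefSeq windows were found for 9 of the 10 genes, all but Dppa3. GENCODE lists further Tet1 transcripts with other starts, and 2 transcripts of Tet2 and 3 of Tet3. Counts per gene do not show which start of Tet1, Tet2 or Tet3 was in use, so these windows need not be the promoters used in the oocyte.

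Tet1 (chromosome 10, 62267318 to 62361866, mm9) had 29.7, 15.4 and 24.4 CPM in Lsd1 KO libraries, against 5.92, 8.44 and 12.9 CPM in Control libraries. Every Lsd1 KO library lay above every Control library, as was so for 19.5% of all genes tested, with Lsd1 KO replicate 2 the closest to Control. The log2 fold change was 1.35 ± 0.33 (edgeR adjusted p = 0.0134), which is 2.55-fold with a 95% interval of 1.55 to 4.20, the largest change among the 10 genes. The counts behind it were 370, 171 and 272 in Lsd1 KO, against 64, 112 and 143 in Control, and the counting error of the smallest was 12.5%. The coefficient of variation between libraries was larger, at 31.1% in Lsd1 KO and 39.0% in Control. Without Lsd1 KO replicate 1 the log2 fold change was 1.16 (adjusted p = 0.0581) and without Control replicate 1 it was 1.09 (0.0590), so these calls were lost while the direction stayed. With the immune marker sum as a covariate it was 1.14 (adjusted p = 0.0298).

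Tet2 (chromosome 3, 133126643 to 133207354) had 24.1, 17.0 and 25.5 CPM in Lsd1 KO, against 28.8, 33.5 and 25.7 CPM in Control. The Lsd1 KO libraries lay below the Control libraries without overlap, by a margin of less than 1 CPM, as 19.1% of all genes did in that direction. The difference did not pass, at -0.40 ± 0.22 on the log2 scale (edgeR adjusted p = 0.224). Tet3 (chromosome 6, 83312367 to 83391672) had 1335, 1473 and 1231 CPM in Lsd1 KO, against 1228, 1611 and 2376 CPM in Control. Control replicate 3 stood far above the other 5 libraries, which lay close together. The log2 fold change of Tet3 was -0.37 ± 0.23 with all libraries (edgeR adjusted p = 0.273) and -0.09 without Control replicate 3.

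Shares within a library do not depend on how libraries are scaled to each other. Of the counts per kilobase of the 3 TET genes, Tet1 held 1.61%, 0.772% and 1.44% in Lsd1 KO, against 0.352%, 0.383% and 0.403% in Control. These averaged 1.27% ± 0.443 in Lsd1 KO, against 0.379% ± 0.0256 in Control (SD, n = 3 each), without overlap, and a two-sided exact permutation test gave p = 0.1, the smallest that 3 samples against 3 allow. Tet3 held 96.2% to 97.9% in Lsd1 KO, against 96.9% to 98.3% in Control, so that the pool of TET transcripts was nearly all Tet3 in every library. Per Tet2 transcript there were 0.769, 0.569 and 0.599 Tet1 transcripts in Lsd1 KO, against 0.129, 0.157 and 0.315 in Control.

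Dnmt3l made up 66.0%, 83.5% and 68.2% of the length-scaled counts of Dnmt3a and Dnmt3l in Lsd1 KO, against 76.1%, 70.4% and 66.0% in Control. The size of this share rests on the exon lengths used, since Dnmt3a had the higher CPM in every library before scaling by length. The groups overlapped (exact permutation p = 0.9), and Lsd1 KO replicate 2 was again the library that stood out. Dppa3 exceeded Uhrf1 by a log2 ratio of 5.29, 4.23 and 4.95 in Lsd1 KO, against 4.55, 3.84 and 4.04 in Control, or 39.0, 18.8 and 31.0 Dppa3 transcripts per Uhrf1 transcript in Lsd1 KO, against 23.3, 14.4 and 16.4 in Control. The means differed by 0.68 (exact permutation p = 0.2), and Lsd1 KO replicate 2 lay within the Control range. These were the 3 balances tested, and the adjusted p of the first and the last was 0.3; with 3 samples against 3, none could have passed 0.05.

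**Figure D4:**
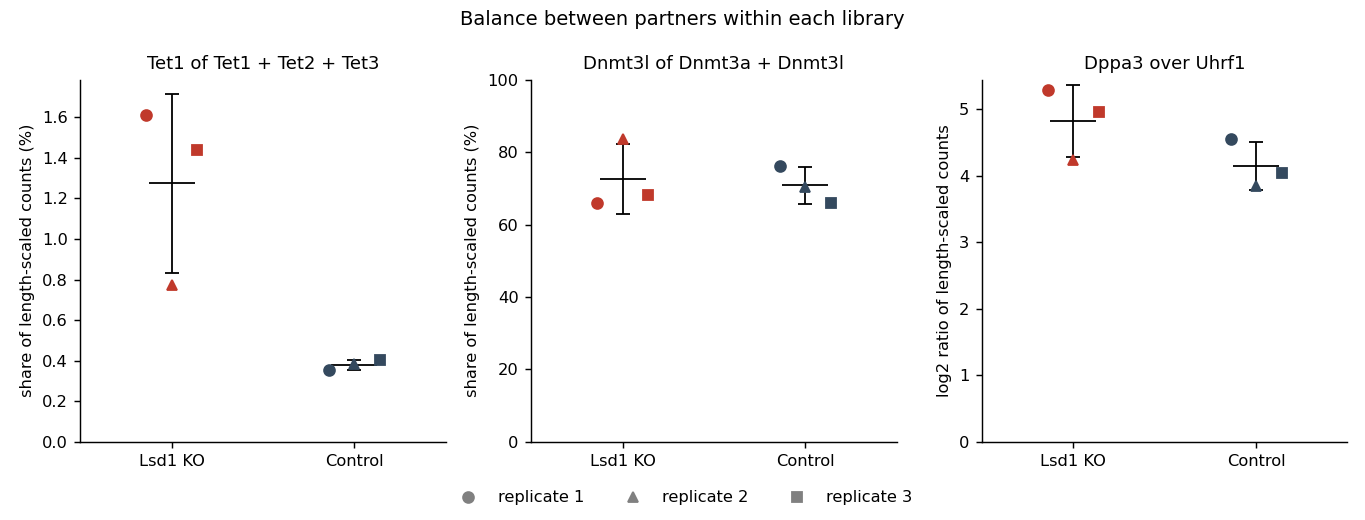
Balances between genes within each library, Lsd1 KO left of Control, with 1 symbol per replicate, a line at the mean and bars of 1 SD (n = 3): the share of Tet1 among the TET genes and of Dnmt3l among Dnmt3a and Dnmt3l (% of length-scaled counts), and the log2 ratio of Dppa3 to Uhrf1. The Tet1 share is 0.772% or more in Lsd1 KO, against 0.403% or less in Control, and the groups overlap in the other panels.

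Around these genes, 92 others of the pathway were followed in 8 lists, and 81 of them were tested. There were 5 higher, 11 lower and 65 that did not pass, or 19.8% called against the 21.3% of all genes tested, with a median log2 fold change of -0.14 against -0.01. Among 9 partners of the maintenance machinery, such as Pcna, Dmap1, Cdca7 and the deubiquitinase Usp7, none was called and none had an unadjusted p under 0.05. Usp7, which stabilises DNMT1 and UHRF1 and was the most abundant of them, was at 525 ± 54.9 CPM in Lsd1 KO, against 423 ± 58.5 CPM in Control. None of the 6 genes of imprint protection was called either, though 1 was higher and 2 were lower at an unadjusted p under 0.05. Zfp57, which binds methylated imprints and was the most abundant of these, was at 1690 ± 76.7 CPM in Lsd1 KO, against 1948 ± 393 CPM in Control.

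Of 9 tested genes from families of methyl-CpG readers, 1 was lower, or 11.1% called against 21.3% of all genes tested. Zbtb33, which encodes the zinc-finger reader Kaiso and was the most abundant of the list, had 44.1, 89.1 and 62.9 CPM in Lsd1 KO, against 102, 125 and 130 CPM in Control (log2 fold change -0.86 ± 0.24, edgeR adjusted p = 0.0219). The call was lost without Lsd1 KO replicate 1 or 3 or Control replicate 2 or 3 (largest adjusted p 0.108), and also after the correction for length and GC content. Of 10 tested genes of base excision and deamination, 2 were higher and none lower, or 20% called against 21.3% of all genes. Ung, the uracil glycosylase that removes deaminated cytosine, had 356, 191 and 308 CPM in Lsd1 KO, against 124, 143 and 149 CPM in Control (log2 fold change 1.04 ± 0.22, edgeR adjusted p = 0.00667). The glycosylase Neil2 was at 30.7 ± 6.78 CPM in Lsd1 KO, against 15.4 ± 1.45 CPM in Control (log2 1.00 ± 0.23, edgeR adjusted p = 0.0101). Both kept the call whichever library was left out. Tdg, the glycosylase that removes TET products, is listed at 0 in all 6 libraries; 4 loci elsewhere in the genome match at least 50% of its transcript at 95% identity or more, and its level is therefore uncertain.

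Of 9 tested genes that partner the TET enzymes or supply their cofactor, 1 was higher and 2 were lower, or 33.3% called where 21.3% of all genes were. DDB1 and CUL4B are parts of a ubiquitin ligase of the CRL4 type, which acts on TET proteins in mice, and their transcripts went in opposite directions. Ddb1 had 655, 505 and 495 CPM in Lsd1 KO, against 241, 292 and 357 CPM in Control (log2 fold change 0.90 ± 0.20, edgeR adjusted p = 0.00791), a call kept without any single library. Cul4b was at 396 ± 41.5 CPM in Lsd1 KO, against 575 ± 58.3 CPM in Control (log2 -0.54 ± 0.17, edgeR adjusted p = 0.0418), a call lost without Lsd1 KO replicate 1 or 3 or Control replicate 1 or 2 (adjusted p up to 0.175), with the immune covariate, with no filter, with the replicate block and after correcting for length and GC content. Ogt, the glycosyltransferase that binds TET proteins, had 80.7, 82.5 and 76.2 CPM in Lsd1 KO, against 133, 140 and 114 CPM in Control (log2 -0.69 ± 0.17, edgeR adjusted p = 0.0119), lost without Lsd1 KO replicate 1 or 3 or Control replicate 2 (up to 0.0650). Sin3a, the corepressor scaffold and most abundant of this list, was at 549 ± 48.0 CPM in Lsd1 KO, against 673 ± 132 CPM in Control, and did not pass.

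Oocyte methylation follows histone marks, above all methylation of histone H3 lysine 36 in transcribed genes. Of 7 genes for such marks 2 were lower, or 28.6% called, where 21.3% of all genes were called and 10.3% were lower. The median log2 fold change of the list was -0.52, and at an unadjusted p under 0.05 there were 4 lower and 0 higher (edgeR). Setd2, the methyltransferase for that lysine, had 218, 238 and 205 CPM in Lsd1 KO, against 326, 412 and 449 CPM in Control (log2 -0.84 ± 0.18, edgeR adjusted p = 0.00644) and kept the call without any single library. Cxxc1, a CpG-binding subunit of H3 lysine 4 methyltransferases, was at 73.7 ± 13.6 CPM in Lsd1 KO, against 121 ± 25.8 CPM in Control (log2 -0.71 ± 0.21, edgeR adjusted p = 0.0291), a call kept only without Control replicate 2 (up to 0.0853 in the other fits that left out a library). Nsd1, another lysine 36 methyltransferase and the most abundant of the list, was at 541 ± 77.1 CPM in Lsd1 KO, against 399 ± 166 CPM in Control, and did not pass.

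Of 15 tested genes of methyl donor supply 1 was higher and 3 were lower, or 26.7% called beside the 21.3% of all genes. Gnmt, which consumes S-adenosylmethionine to methylate glycine, had 8.98, 11.2 and 9.79 CPM in Lsd1 KO, against 3.61, 3.54 and 1.26 CPM in Control (log2 1.82 ± 0.41, edgeR adjusted p = 0.00875), kept without any single library. Ahcyl1, a relative of adenosylhomocysteinase, was at 37.1 ± 3.26 CPM in Lsd1 KO, against 71.7 ± 13.1 CPM in Control (log2 -0.95 ± 0.19, edgeR adjusted p = 0.00543), also kept. Mat1a, a methionine adenosyltransferase, was at 17.7 ± 4.15 CPM in Lsd1 KO, against 31.4 ± 8.49 CPM in Control (edgeR adjusted p = 0.0384), lost without Lsd1 KO replicate 2 or 3 or Control replicate 1 or 2 (up to 0.176), with upper-quartile scaling, with library totals, with the filter of 10 CPM and with the immune covariate. Mat2b, the regulatory subunit of methionine adenosyltransferase and most abundant of the list, was at 1076 ± 200.4 CPM in Lsd1 KO, against 1147 ± 154 CPM in Control.

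Of 16 tested genes at imprints that carry methylation from the oocyte, 1 was higher and 3 were lower, or 25% called, close to the 21.3% of all genes. Peg10, derived from a retrotransposon, had 9.38, 8.57 and 5.48 CPM in Lsd1 KO, against 23.9, 30.3 and 30.1 CPM in Control (log2 -1.84 ± 0.27, edgeR adjusted p = 8.06e-04). Inpp5f, an inositol phosphatase gene, had 20.8, 26.2 and 26.8 CPM in Lsd1 KO, against 51.0, 68.8 and 53.1 CPM in Control (log2 -1.23 ± 0.20, edgeR adjusted p = 0.00171). Both were called lower whichever library was left out. Mest was at 103 ± 17.7 CPM in Lsd1 KO, against 150.5 ± 8.67 CPM in Control (log2 -0.55 ± 0.18, edgeR adjusted p = 0.0457), a call kept only without Lsd1 KO replicate 2 (up to 0.202 in the other such fits) and lost with DESeq2 size factors, the replicate block and the immune covariate. Zrsr1 had 3.69, 2.62 and 2.60 CPM in Lsd1 KO, against 0, 0.678 and 0.271 CPM in Control (edgeR adjusted p = 0.0156), with the call lost without Lsd1 KO replicate 1 (0.0636). It lies inside Commd1 on the opposite strand. Without strand in the counting, any Commd1 reads that fall on Zrsr1 cannot be told from its own. Gnas, which encodes a stimulatory G protein subunit and was the most abundant of the list, was at 537 ± 104 CPM in Lsd1 KO, against 622 ± 228 CPM in Control, and did not pass. Counts per gene do not tell the parental alleles apart, and methylation itself was not measured.

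**Figure D5:**
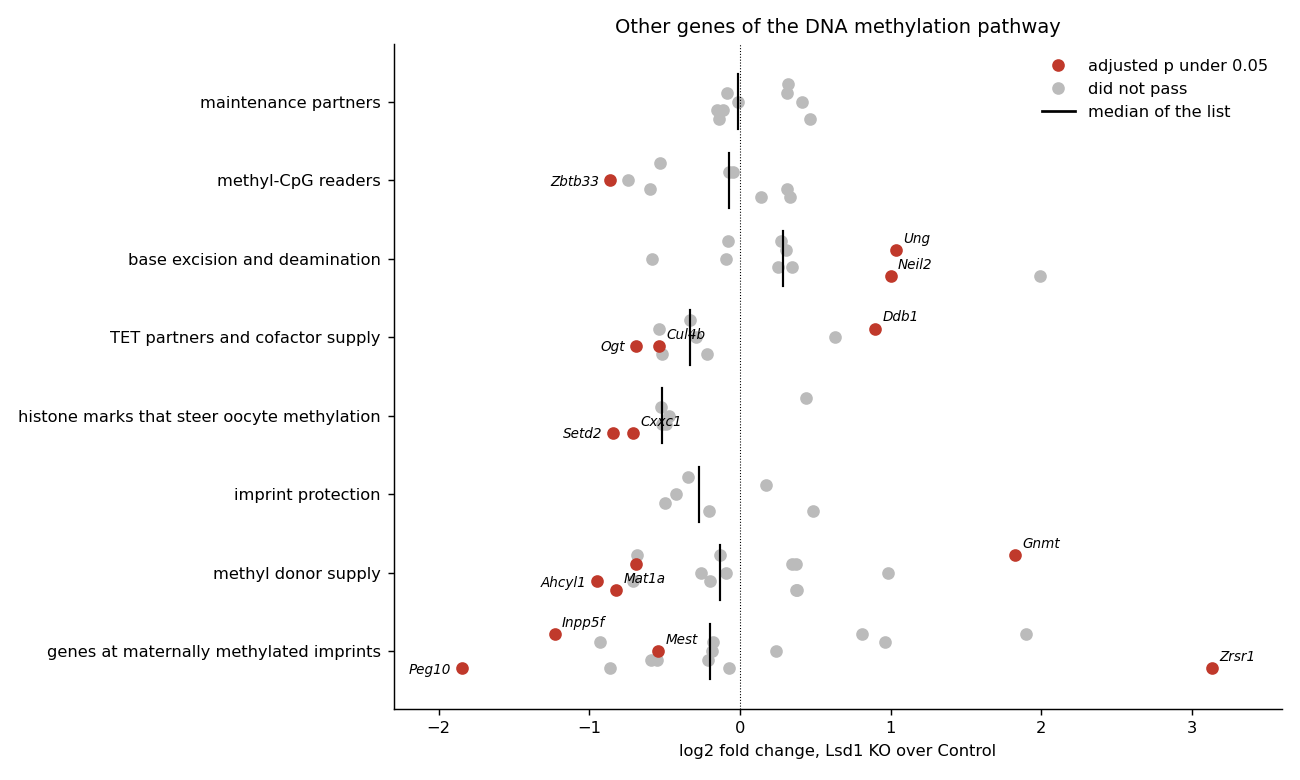
Log2 fold change, Lsd1 KO over Control, of the 81 tested genes in the 8 lists, 1 point per gene, with genes past an adjusted p of 0.05 in red and those described in the text named, the others in grey, and a black line at the median of each list. The named genes run from Peg10 at -1.84 to Zrsr1 at 3.13.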

How the data were processed

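Per the labels, 100 oocytes per sample were lysed directly, cDNA was amplified with the Ovation RNA-seq system, and paired-end TruSeq libraries were made. The authors deposited 1 table of raw counts per gene for each library. HTSeq 0.5.3p9, TopHat2 2.0.7, CASAVA 1.8.2 and the build mm9 are listed in the submitters' processing notes, without options, annotation or strand setting. The 10 genes and all lists were chosen with earlier results of these data known. Genes kept by filterByExpr (minimum count 10) were scaled by TMM and tested by genotype with edgeR 4.0.16 in R 4.3.3 (quasi-likelihood F test, two-sided, Benjamini-Hochberg over 12935 genes); standard errors and 95% intervals came from the fit. Positions, exon lengths and GC content of 21709 symbols came from GENCODE M1 (NCBIM37, equal to mm9); copies were sought with blastn 2.17.0 (at least 90% identity over 200 bases). Named were all 10 genes, Kdm1a, genes overlapping them, and in each list the called and the most abundant genes, except 1 called gene that is not reported here; others are marker or partner genes named to say what a list holds, Commd1, which overlaps a called gene, or Tdg; these were chosen after their values were seen. Alternatives were DESeq2 1.42.0, limma-voom (limma 3.58.1), other scalings and filters, a replicate block, a length and GC correction (loess, span 0.5), each library left out, and, added after seeing the data, an immune marker covariate. If replicates are not from separate animals, p-values measure only the spread between these samples, which may be technical.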

Additional observations from a re-analysis of the deposited data

How the results depend on the processing

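Tet1 kept its direction under all 16 alternative fits and passed in 14, with log2 fold changes of 1.09 to 1.67; Dppa3 kept its direction in all 16 and passed in 10 (0.50 to 0.77). The 2 higher calls numbered 0 to 2 when 1 library was left out (0 without Lsd1 KO replicate 1, 2 without Lsd1 KO replicate 2 and 1 without each of the others), 1 with the replicate block (Dppa3 adjusted p = 0.0515), 1 with the immune marker covariate, which was chosen after seeing the data, and 0 at an adjusted p under 0.01; no gene of the 10 was called lower under any of these. Same-numbered libraries did not pair: deviations from the group means correlated at -0.029, 0.111 and -0.0211 for replicates 1, 2 and 3, and only for replicate 2 was the own number the best match. The wider calls were 4 to 9 higher and 4 to 10 lower with 1 library left out (9 higher without Control replicate 3; 6 lower without Lsd1 KO replicate 1, 4 without Lsd1 KO replicate 3, 7 without Control replicate 1, 5 without Control replicate 2), and 3 higher and 4 lower at an adjusted p under 0.01. Estimates near 0 changed sign, none of them past the threshold. After the length and GC correction the log2 fold change was 0.0387 for Dnmt3a and 0.0258 for Hells. That of Uhrf1 was 0.00759 with upper-quartile scaling, 0.0295 with the filter of 10 CPM in 3 libraries and 0.050 with the immune covariate, and it ranged from -0.213 to 0.0741 with 1 library left out. That of Dnmt3l ranged from -0.282 (without Lsd1 KO replicate 2) to 0.352. The Dnmt3l share differed by 1.75 percentage points, by -3.74 without Lsd1 KO replicate 2 and by -0.663 without Control replicate 3, and ranged from -3.74 to 5.03; the cause was not tested. The Tet1 share kept its direction throughout, at 0.725 to 1.15 percentage points with 1 library left out. Among the 10, counting error was largest for Tet1, Tet2 and Dnmt3b, with up to 12.5%, 7.29% and 7.91% for their smallest counts. For each of them the coefficient of variation between libraries was larger in both genotypes.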
